A study of Mus musculus with 14 samples.

Results

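The 9 G protein-coupled receptors that sense lipids, protons or chemoattractant peptides were followed through bulk RNA-seq of dorsal horn microglia: Lpar5, Lpar6, S1pr1, Ptafr, Ltb4r1, Gpr183, Gpr65, Gpr132 and Cmklr1. They were taken by symbol from the table of normalized counts, and all 9 were found among its 14329 genes. The dorsal part of the spinal cord was taken at day 5 after serum transfer, and 2000 cells that were CD45low, CD11b+ and CX3CR1+ were sorted per sample. The study's gating scheme further lists the sorted cells as negative for CCR2 and Ly6C, a gate meant to leave out monocytes. The mice were 6 months old, male and female, and were either C57BL/6 WT or heterozygous TASTPM, which carry human APP with the Swedish mutation (from the TAS10 line). TASTPM transgenes are under the mouse Thy-1 promoter, active in neurons, and are not designed for expression in the microglia that were sequenced. K/BxN ST mice received arthritogenic K/BxN serum intraperitoneally on days 0 and 2, whereas serum pooled from KRN/C57 mice was given to the Control ST mice at the same volume, so every group was injected. There were 3 libraries of WT Control ST, 4 of WT K/BxN ST, 3 of TASTPM Control ST and 4 of TASTPM K/BxN ST, 14 in all, and neither sex nor animal was given per library.

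These receptors let a myeloid cell read its surroundings. Lysophosphatidic acid, sphingosine 1-phosphate, platelet-activating factor (PAF), leukotriene B4 and oxysterols are made from membrane lipids by tissue cells and leukocytes, and each is read by its own heptahelical receptor, which signals through heterotrimeric G proteins and arrestins to cell shape, migration and cytokine output. Chemerin, the ligand of Cmklr1, is a protein chemoattractant, and Gpr65 and Gpr132 belong to the receptors that respond to extracellular acidification, with lysolipids proposed as further ligands. Microglia are known for a high level of several such receptors, while others, among them the leukotriene B4 receptor Ltb4r1, are known from neutrophils and monocytes.

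A normalized count is the number of reads on a gene divided by a factor for its library. Libraries held 14223015 to 20239175 reads on genes. Library numbers follow the sample labels for TASTPM K/BxN ST and the column order of the table for the other groups. 4 libraries stood apart, WT K/BxN ST 1 and 2 and TASTPM K/BxN ST 1 and 2: 10 monocyte and 10 neutrophil marker genes took 0.575% to 2.30% of their reads on genes, against 0.00146% to 0.0175% in the other 10. All 10 monocyte markers were higher in each of these 4 libraries than in any other, with Ly6c2 between 12898 and 29133 normalized counts against at most 17.8, and Ccr2 between 8537 and 27035 against at most 86.0. Ly6c2 and Ccr2 encode proteins for which the sorted cells were gated negative. Of the neutrophil markers S100a8 reached 39499, 50146 and 53594 in 3 of them but 143 in WT K/BxN ST 2, within the 5.03 to 969 of the other libraries, and S100a9 followed the same order. The summed count of 10 microglia markers lay between 271051 and 629734 in the 4 libraries and between 780018 and 1033894 in the other 10, with Tmem119 between 42292 and 84054 against 120565 to 162963 and P2ry12 between 34656 and 94752 against 106484 to 166138. Of 7 border macrophage markers 4, and of 5 dendritic cell markers analysed 3, were also higher in all 4 libraries, Flt3 between 243 and 923 among them, whereas Mrc1 overlapped, with 294 to 942 against 0 to 599. Erythroid markers summed to 676 to 4436 in the 4 libraries and to 508 to 41819 in the others, and the 8 T and NK cell markers were not analysed here.

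Per kilobase of exon the 9 receptors fell into 3 tiers. Gpr183, the receptor for the oxysterol 7α,25-dihydroxycholesterol, was the most abundant of them in each of the 14 libraries, with a median of 2899 normalized counts per kilobase and a range of 1204 to 5026. Lpar6, Lpar5, Gpr65, Ptafr, S1pr1 and Cmklr1 formed a middle tier, with medians of 509, 499, 478, 404, 307 and 137 normalized counts per kilobase. Their order was not fixed: Lpar6 exceeded Lpar5 in 7 of 14 libraries, Lpar5 exceeded Gpr65 in 7, Gpr65 exceeded Ptafr in 10, Ptafr exceeded S1pr1 in 13 and S1pr1 exceeded Cmklr1 in 11, and none of these neighbours had ranges that stood apart. Ltb4r1 and Gpr132 had medians of 0.757 and 0.583 normalized counts per kilobase, with maxima of 1175 and 31.3. They had at least 10 reads in 4 and 5 libraries and therefore failed the filter of 10 reads in at least 7 libraries, which the other 7 receptors passed with 10 reads in every library.

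**Figure D1:**
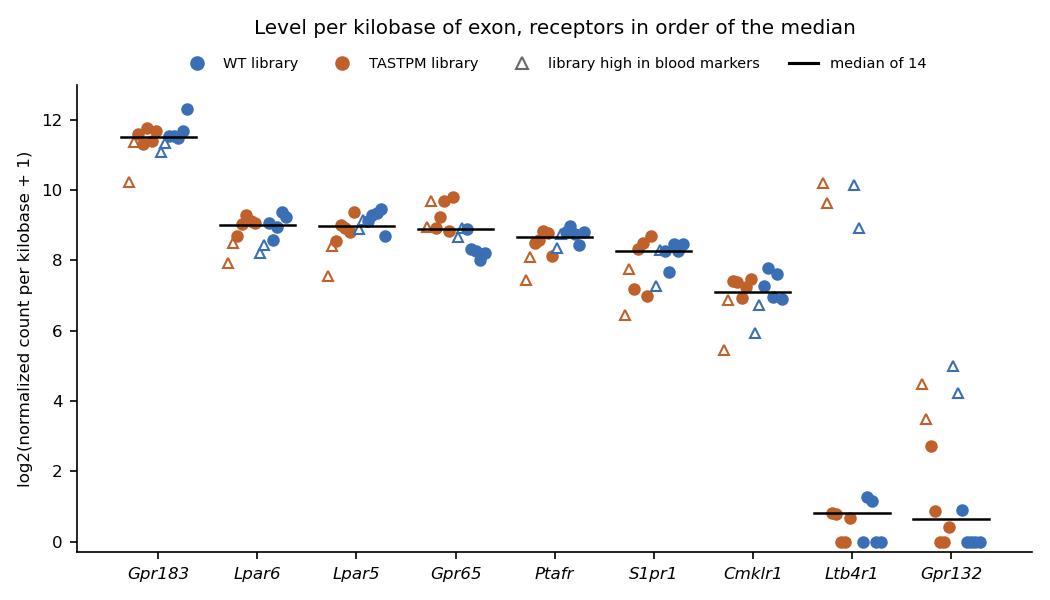
Level of each receptor as log2 of normalized counts per kilobase of exon plus 1 (vertical axis) in the 14 libraries, WT in blue and TASTPM in orange, with open triangles for the 4 libraries high in blood cell markers and a bar at the median. Gpr183 stands highest with a median of 2899 per kilobase, and Ltb4r1 and Gpr132 lie near 0 except in the triangles and, for Gpr132, 1 further TASTPM K/BxN ST library.

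The effect of arthritogenic serum was tested in each genotype with limma on log2(normalized count + 1), a scale that understates the change of genes with few reads. A call needed a Benjamini-Hochberg adjusted p below 0.05 over 12647 genes together with a log2 difference of more than 1 in either direction. None of the 9 receptors was called in WT, where limma called 1 gene (0.00791%), and none in TASTPM, where it called no gene (0%). At an unadjusted limma p below 0.05 there were 2 receptors in WT, Gpr132 and Lpar6, where 7.14% of all genes passed, and the same 2 receptors in TASTPM, where 4.22% passed. The quasi-likelihood test of edgeR on the recovered reads also called 0 of 9 in both genotypes, with 3 of 9 below an unadjusted p of 0.05 in each. Over all 12647 genes edgeR called 0 in both, with 784 below 0.05 in WT and 511 in TASTPM. DESeq2, on the recovered reads with the filter, called 1 of 9 in WT, Ltb4r1, where it called 1.02% of genes, and 0 of 9 in TASTPM, where it called 0.127%. Without a filter DESeq2 called Gpr132 and Ltb4r1 in WT (1.93% of genes called) and Ltb4r1 in TASTPM (0.617%). In bulk RNA a lower level can come from fewer cells of a type or from less RNA per cell, which cannot be told apart. Of the 7 receptors that passed the filter, 5 had a lower mean log2 level under K/BxN ST in WT and 7 in TASTPM, with medians of -0.23 and -0.49, beside medians over all 12645 genes of 0.06 and 0.01 and lower means for 46.0% and 49.6% of those genes. When the 4 libraries high in blood markers were left out, 3 of the 7 were lower in WT (median 0.04) and 6 in TASTPM (median -0.24).

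**Figure D2:**
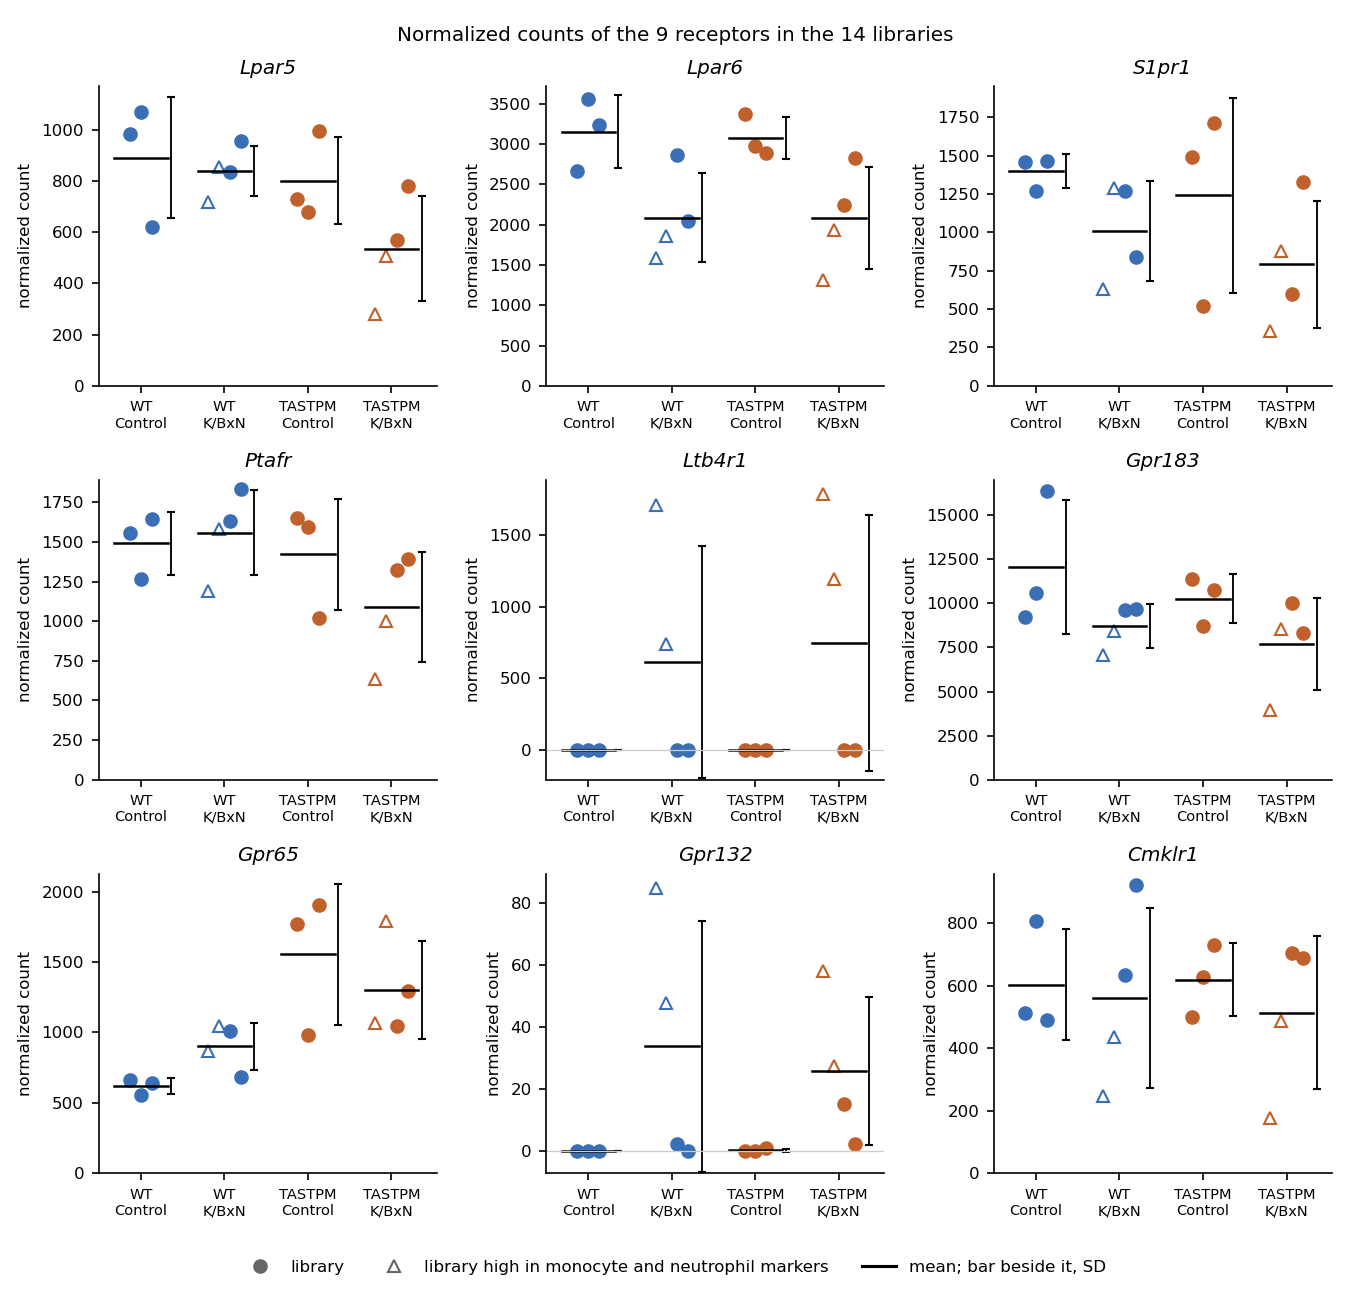
Normalized counts (vertical axes, linear) of the 9 receptors in each library of the 4 groups, with the group mean as a bar and the SD beside it, and open triangles for the 4 libraries high in monocyte and neutrophil markers. Ltb4r1 is above 3 normalized counts in the triangles alone, Lpar6 is lowest in them, and Gpr65 is lowest in WT Control ST.

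Lpar5 and Lpar6 are receptors for lysophosphatidic acid, a lysophospholipid made outside cells from lysophosphatidylcholine. Lpar6 (chr14:73475335-73480734, plus strand, GRCm39) had 2665, 3560.1 and 3239 normalized counts in the 3 WT Control ST libraries and 1587, 1855, 2861 and 2052 in the 4 of WT K/BxN ST. In TASTPM it had 3372, 2979 and 2888 under Control ST and 1319.6, 1932, 2247 and 2834 under K/BxN ST. Both genotypes had the lower values under K/BxN ST, with overlap by 1 library in WT and none in TASTPM, where 2.74% of genes were lower without overlap. The difference was -0.62 ± 0.25 (SE) on the log2 scale in WT (limma, adjusted p = 0.684) and -0.61 ± 0.25 in TASTPM (limma, adjusted p = 0.964), and exact permutation tests (two-sided) gave p = 0.0857 and 0.0571, where 0.0286 is the smallest p that 4 against 3 libraries can give. The 4 libraries high in blood markers were also the 4 lowest of all 14 for Lpar6. Without them the differences were -0.37 ± 0.22 and -0.28 ± 0.22, and relative to the summed microglia markers Lpar6 lay between 2.95 and 4.87 per 1000 in the 4 libraries and between 2.22 and 3.70 in the other 10. On microglia marker scaling the differences were -0.08 and -0.04. Lpar6 shares 408 of its 5400 exon bases with Rb1 on the opposite strand, and the counting was not stated to use strand.

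Lpar5 (chr6:125044883-125059435, plus strand) had 985, 1069 and 622 normalized counts in WT Control ST, against 717, 855, 836 and 956 in WT K/BxN ST, which overlapped. In TASTPM it had 730.2, 678 and 998 under Control ST and 282, 509, 569.8 and 782 under K/BxN ST. The 3 lowest of all 14 values were thus K/BxN ST libraries of TASTPM. The difference was -0.05 ± 0.32 (SE, log2) in WT (limma, adjusted p = 0.975) and -0.65 ± 0.32 in TASTPM (limma, adjusted p = 0.964). Neither was called, and without the 4 libraries high in blood markers they were 0.04 ± 0.32 and -0.24 ± 0.32.

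S1pr1, the sphingosine 1-phosphate receptor that guides leukocyte egress and is also abundant on endothelium and astrocytes, varied widely within 3 of the 4 groups. Its normalized counts (chr3:115504071-115508721, minus strand) were 1456, 1271 and 1466 in WT Control ST, against 629.6, 1289, 1267 and 838 in WT K/BxN ST. They were 1493, 517 and 1714 in TASTPM Control ST and 359, 882, 597 and 1327 in TASTPM K/BxN ST. WT Control ST was the tightest group, with a mean of 1398 ± 110.1 (SD, n = 3), and TASTPM Control ST had 1241 ± 637 (SD, n = 3). The serum difference was -0.53 ± 0.45 (SE, log2) in WT (limma, adjusted p = 0.791) and -0.63 ± 0.45 in TASTPM (limma, adjusted p = 0.964), and the groups overlapped in both. Without the 4 libraries high in blood markers it was -0.44 ± 0.49 and -0.30 ± 0.49. Single libraries moved it, to -0.33 in WT without WT K/BxN ST 1, and in TASTPM to -1.18 without Control ST 2, -0.31 without K/BxN ST 1 and -0.31 without Control ST 3. Endothelial and astrocyte marker sums stayed at 122 to 567 and 1625 to 7599 normalized counts over all libraries, and their part in the S1pr1 level was not tested. S1pr1 shares 50 of its 4134 exon bases with the antisense Gm9889.

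Ptafr is the receptor for PAF, an ether phospholipid that activates platelets and phagocytes. It had 1558, 1269 and 1648 normalized counts (chr4:132291363-132309994, plus strand) in WT Control ST, against 1189.6, 1584, 1632 and 1833 in WT K/BxN ST. In TASTPM it had 1651, 1597 and 1019 under Control ST and 634, 1004, 1323 and 1396 under K/BxN ST. Values in WT were close together in both sera, and in TASTPM the 2 lowest were the libraries high in blood markers. The difference was 0.06 ± 0.28 (SE, log2) in WT (limma, adjusted p = 0.971) and -0.42 ± 0.28 in TASTPM (limma, adjusted p = 0.964), and without the 4 libraries it was 0.22 ± 0.26 and -0.03 ± 0.26.

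Ltb4r1, the high-affinity leukotriene B4 receptor that draws neutrophils and monocytes to inflamed tissue, behaved unlike the receptors above. Of the WT K/BxN ST libraries the first and the second held 1712 and 741 normalized counts of it and the others 0 and 2.18, while WT Control ST held 1.87, 0 and 0 (chr14:56003292-56005951, plus strand). In TASTPM K/BxN ST it had 1788, 1197, 1.17 and 1.13 normalized counts, and in TASTPM Control ST 0, 0 and 0.909. Every library outside the 4 that were high in blood markers therefore held at most 2 reads, below the 3 reads taken as the smallest detectable number. The summed reads were 2734 in WT K/BxN ST against 2 in WT Control ST, a ratio of 1133 with a 95% exact interval of 313 to 9359, and 2979 against 1 in TASTPM, a ratio of 2350.0 with an interval of 421 to 92849. Read against 3 reads in each Control ST library instead, the K/BxN ST means were 225 times that level in WT and 244 times in TASTPM, and 90.8 and 130 times without WT K/BxN ST 1 and TASTPM K/BxN ST 1 respectively. These intervals cover counting error only, which is small beside the difference between libraries of a K/BxN ST group. limma gave a log2 difference of 4.98 ± 2.79 (SE) in WT (adjusted p = 0.734) and 5.50 ± 2.79 in TASTPM (adjusted p = 0.964), and DESeq2 gave 9.96 (adjusted p = 0.0472) and 11.01 (adjusted p = 0.0799). Exact permutation tests (two-sided) gave p = 0.257 and 0.171. Without the 4 libraries the limma differences were 0.33 ± 1.77 and 0.79 ± 1.77, between groups that were all at 2 reads or fewer.

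Gpr132, a receptor of lymphoid and myeloid cells, was found in the same libraries at a much lower level. The first and the second WT K/BxN ST library held 84.9 and 47.8 normalized counts of it, the others 2.39 and 0, and all WT Control ST libraries 0 (chr12:112814493-112831848, minus strand). In TASTPM K/BxN ST it had 58.2, 27.6, 15.3 and 2.26, and in TASTPM Control ST 0, 0 and 0.909. The third TASTPM K/BxN ST library, with 13 reads, was the only one outside the 4 that held more than 3 reads. In TASTPM all 4 K/BxN ST libraries were above all 3 Control ST libraries, as were those of Ltb4r1 by less than 1 normalized count, where 2.69% of genes were higher without overlap. The mean in WT K/BxN ST was at least 12.4-fold higher than 3 reads per WT Control ST library would give, and at least 6.13-fold without WT K/BxN ST 1. On the same floor the TASTPM K/BxN ST mean was 8.43 times the level of 3 reads per library, and 4.91 times without TASTPM K/BxN ST 1. The reads themselves in TASTPM were 100 against 1, a ratio of 78.9 with a 95% exact interval of 13.8 to 3147, which is not on the scale of the WT bound. That interval covers counting error only and leaves out the spread between libraries. limma gave 3.45 ± 1.55 (SE, log2) in WT (adjusted p = 0.685) and 3.80 ± 1.55 in TASTPM (adjusted p = 0.964), with exact permutation p = 0.257 and 0.0571 (two-sided). Without the 4 libraries the differences were 0.88 ± 1.76 and 2.55 ± 1.76.

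Both receptors were also set beside the monocyte marker Ly6c2 in the 4 libraries, which is among the markers by which those libraries were told apart. Per 1000 normalized counts of Ly6c2, Ltb4r1 came to 72.8 and 57.5 in the WT pair of these libraries and to 61.4 and 76.5 in the TASTPM pair. Gpr132 had 3.61 and 3.71 per 1000 of Ly6c2 in the WT libraries and 2.0 and 1.8 in those of TASTPM. The monocyte marker Ccr2 was not proportional to Ly6c2. It had 22987 and 19661 normalized counts in the WT pair and 27035 and 8537 in the TASTPM pair, where Ly6c2 had 23510, 12898, 29133 and 15646. These ratios therefore describe Ly6c2 alone. The gate was negative for Ly6C and CCR2, and the part of monocytes or other blood cells in the Ltb4r1 and Gpr132 counts was not tested.

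**Figure D3:**
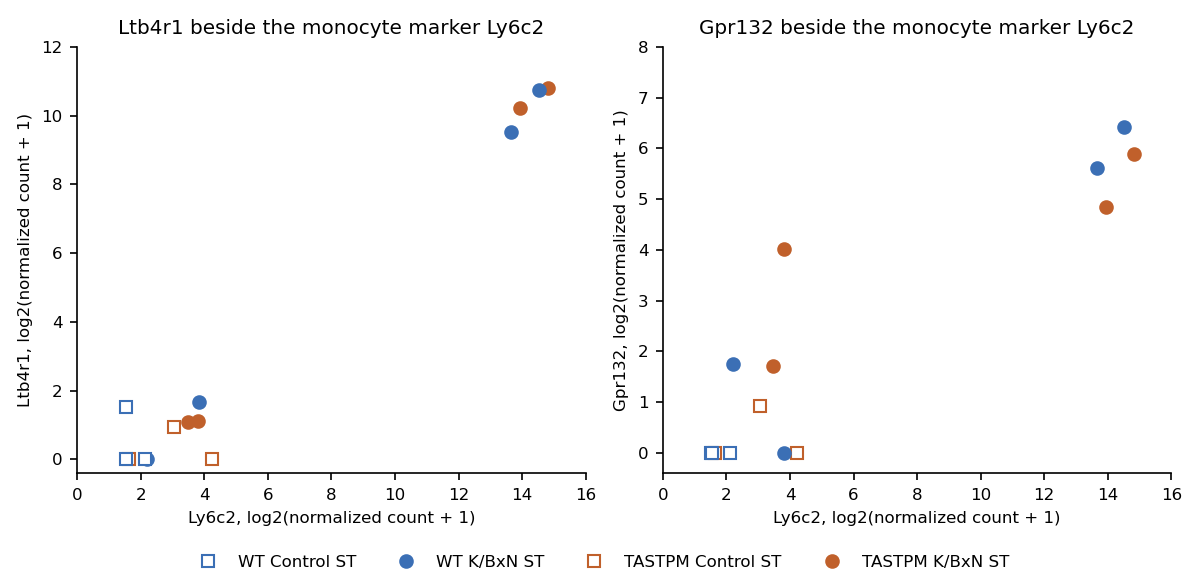
Ltb4r1 (left) and Gpr132 (right) against the monocyte marker Ly6c2, each as log2(normalized count + 1), for the 14 libraries, with open squares for Control ST and filled circles for K/BxN ST. 4 K/BxN ST libraries lie at the upper right, at 741 to 1788 normalized counts of Ltb4r1 and 27.6 to 84.9 of Gpr132, and the other 10 lie at the lower left, with Gpr132 at most 15.3. Ly6c2 is among the markers by which the 4 libraries were told apart, so their place on its axis was set by that choice.

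The bases before the start of these receptor genes were read because Ltb4r1 and Gpr132 moved with the same libraries. RefSeq sequence (GRCm38.p6) gave 9 windows of 250 bases for 8 of the 9 receptors, all but S1pr1, and they were searched on both strands for AGGAAG, the core bound by PU.1 and other ETS factors of myeloid cells, for the AP-1 letters TGANTCA and for the C/EBP letters TTGCNNAA, where N is any base. The windows of Ltb4r1 (chr14:55765712-55765961, plus strand), Gpr132 (chr12:112860917-112861166, minus strand) and Gpr65 (chr12:98268385-98268634, plus strand) are shown 5′ to 3′ on the strand of the gene, ending at the base before the start, with matches in capitals.
Ltb4r1: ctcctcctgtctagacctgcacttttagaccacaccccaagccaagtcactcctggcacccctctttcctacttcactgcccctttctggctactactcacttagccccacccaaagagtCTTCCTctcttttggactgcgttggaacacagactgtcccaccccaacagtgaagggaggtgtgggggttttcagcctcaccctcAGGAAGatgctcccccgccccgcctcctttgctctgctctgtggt
Gpr132: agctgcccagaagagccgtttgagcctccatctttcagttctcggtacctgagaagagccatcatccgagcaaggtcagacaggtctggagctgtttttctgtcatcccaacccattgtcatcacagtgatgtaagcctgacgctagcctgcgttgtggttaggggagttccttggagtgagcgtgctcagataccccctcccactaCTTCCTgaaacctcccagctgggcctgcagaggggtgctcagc
Gpr65: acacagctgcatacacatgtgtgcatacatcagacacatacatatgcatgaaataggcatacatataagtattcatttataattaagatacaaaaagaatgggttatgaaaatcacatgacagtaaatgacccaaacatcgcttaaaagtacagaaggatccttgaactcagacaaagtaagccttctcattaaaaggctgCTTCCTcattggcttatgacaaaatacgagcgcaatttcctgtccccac
Each of the 3 windows holds AGGAAG or its reverse complement CTTCCT within 50 bases of the start, beginning 45, 43 and 49 bases before it, and that of Ltb4r1 holds another 130 bases before it. How often a match lies so near the start over all windows was not counted. Cmklr1, 117 bases before its start, and Lpar5, 50 bases before 1 of its 2 starts, make 5 of 8 receptors with a match in any of their 9 windows. The background is per window and not per gene: 29.5% of all 32851 windows of the same length hold one. These 5 include receptors read in every library as well as Ltb4r1 and Gpr132. TTGCNNAA was found for Gpr183 alone, 207 bases before its start (9.56% of all windows), and TGANTCA for none of the 8 (6.75%).

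Gpr183, also called EBI2, steers B cells, dendritic cells and macrophages along oxysterol gradients. It had 9254, 10592 and 16391 normalized counts in WT Control ST, against 7047, 8417, 9651 and 9692 in WT K/BxN ST (chr14:122189592-122202610, minus strand). In TASTPM it had 11357, 8707 and 10732 under Control ST and 3926, 8523, 10015 and 8339 under K/BxN ST. The highest value was a WT Control ST library and the lowest a TASTPM K/BxN ST library high in blood markers. The difference was -0.44 ± 0.29 (SE, log2) in WT (limma, adjusted p = 0.764) and -0.49 ± 0.29 in TASTPM (limma, adjusted p = 0.964), and -0.28 ± 0.23 and -0.16 ± 0.23 without the 4 libraries. It was -0.20 in WT without WT Control ST 3 and -0.19 in TASTPM without TASTPM K/BxN ST 1. Relative to the summed microglia markers Gpr183 had 13.4 to 16.4 per 1000 in the 4 libraries and 9.12 to 15.9 in the other 10.

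Cmklr1, the receptor through which chemerin attracts macrophages, dendritic cells and NK cells, had 515, 808 and 491 normalized counts in WT Control ST, against 249, 438, 637 and 922 in WT K/BxN ST (chr5:113750358-113788509, minus strand). In TASTPM it had 500.4, 629.5 and 731 under Control ST and 179, 488, 705 and 688 under K/BxN ST. As for Lpar6, the 4 libraries high in blood markers were the 4 lowest of all 14, and their mean was 51.1% of the mean of the other 10, beside 51.3% for the summed microglia markers. The difference was -0.23 ± 0.49 (SE, log2) in WT (limma, adjusted p = 0.920) and -0.43 ± 0.49 in TASTPM (limma, adjusted p = 0.964). It turned to 0.38 ± 0.33 in WT and 0.18 ± 0.33 in TASTPM without the 4 libraries, and to 0.31 and 0.14 on microglia marker scaling.

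Gpr65, also called TDAG8, a proton-sensing receptor that raises cyclic AMP in leukocytes, was lowest in WT Control ST. It had 663, 557 and 641 normalized counts in the 3 WT Control ST libraries (chr12:98234886-98242980, plus strand). WT K/BxN ST had 869.8, 1044, 1014 and 681, TASTPM Control ST had 1773, 984 and 1906, and TASTPM K/BxN ST had 1066, 1793, 1044 and 1297. All 11 libraries of the other groups were thus above the highest WT Control ST library, the lowest of them by 681 against 663. Setting WT Control ST against all other groups was not a planned comparison, and the share of all genes with such a split was not counted. Group means were 620.3 ± 55.5 (SD, n = 3), 902 ± 166 (SD, n = 4), 1554 ± 499 (SD, n = 3) and 1300.2 ± 348 (SD, n = 4). The serum difference in WT was 0.52 ± 0.27 (SE, log2; limma, adjusted p = 0.711; two-sided exact permutation p = 0.0571), with no overlap between groups, where 3.67% of genes were higher without overlap. In TASTPM it was -0.23 ± 0.27 (limma, adjusted p = 0.964), and the groups overlapped. Gpr65 had 869.8 to 1793 normalized counts in the 4 libraries high in blood markers, within the 557 to 1906 of the other 10, and the WT difference without those libraries was 0.43 ± 0.33. On microglia marker scaling the difference was 1.06 ± 0.47 in WT and 0.34 in TASTPM. An antisense transcript, Gm47566, covers 587 of the 2154 exon bases of Gpr65 on the opposite strand, and reads from it could not be told apart without a strand in the counting.

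**Figure D4:**
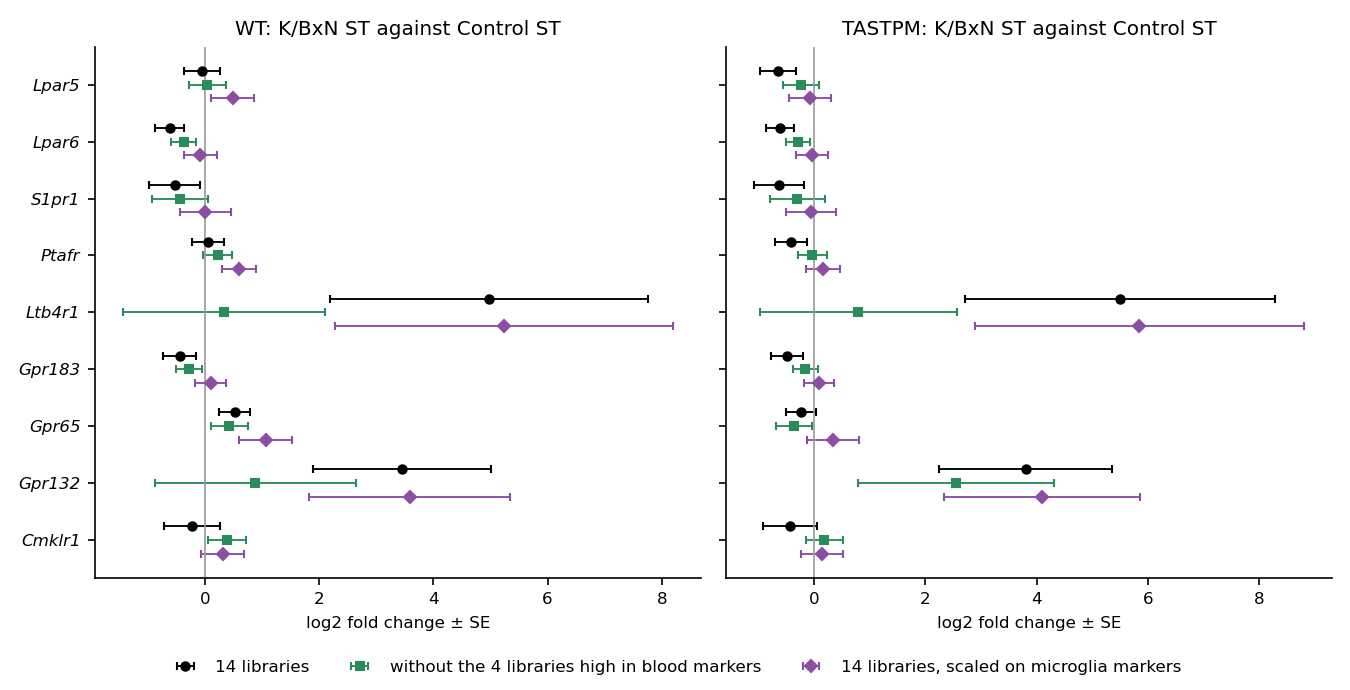
Difference between K/BxN ST and Control ST in WT (left) and TASTPM (right) for the 9 receptors on the log2 scale with the SE, in all 14 libraries (circles), without the 4 libraries high in blood markers (squares) and in all libraries after scaling on microglia markers (diamonds). Ltb4r1 moves from 4.98 to 0.33 in WT when the 4 libraries are left out, and Gpr65 in WT stays between 0.43 and 1.06.

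TASTPM mice model amyloid pathology, and the genotypes were compared within each serum. Under Control ST none of the 9 receptors was called by limma, which called no gene (0%), and 1 of 9, Gpr65, had an unadjusted p below 0.05, as did 5.57% of all genes. Gpr65 was 1.27 ± 0.29 (SE, log2) higher in TASTPM than in WT (limma, adjusted p = 0.497), with all 3 TASTPM libraries above all 3 WT libraries, where 4.97% of genes were higher without overlap. The exact permutation test (two-sided) gave p = 0.10, the smallest that 3 against 3 libraries can give. edgeR gave 1.33 (adjusted p = 0.633) and called 0 of 9, whereas DESeq2 called Gpr65 alone of the 9, with 1.32 (adjusted p = 0.0166), where it called 0.325% of genes, and again without a filter (adjusted p = 0.00669), where it called 0.589%. Over the 28 alternatives the adjusted p of Gpr65 ranged from 0.00669 to 0.9998 and its log2 difference from 1.09 to 1.57. None of the 4 libraries high in blood markers enters these 2 groups. The other 6 receptors that passed the filter differed by -0.34 (S1pr1) to 0.06 (Cmklr1).

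Under K/BxN ST limma again called none of the 9 receptors and no gene (0%), and 2 of 9, Lpar5 and Ptafr, had an unadjusted p below 0.05, as did 1.91% of all genes. edgeR and DESeq2 each called 0 of 9, with 1 of 9, Lpar5, below an unadjusted p of 0.05. Over all genes both called 0, with 184 of 12647 (edgeR) and 243 of 12627 (DESeq2) below 0.05. Lpar5 was lower in TASTPM than in WT by -0.73 ± 0.30 (SE, log2; limma, adjusted p = 0.9998; two-sided exact permutation p = 0.0571) and Ptafr by -0.56 ± 0.26 (limma, adjusted p = 0.9998; two-sided exact permutation p = 0.0857). For Lpar5 782 in the fourth TASTPM library lay above 717 in the first of WT, so the groups overlapped. Without the 4 libraries, which are 2 of each genotype, the differences were -0.42 ± 0.35 and -0.35 ± 0.28. Gpr65 was 0.51 ± 0.25 higher in TASTPM (limma, adjusted p = 0.9998), and all 4 TASTPM libraries were above all 4 of WT, the lowest of them by less than 1 normalized count, where 1.16% of genes were higher without overlap. The exact permutation test (two-sided) gave p = 0.0286, the smallest that 4 against 4 libraries can give.

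**Figure D5:**
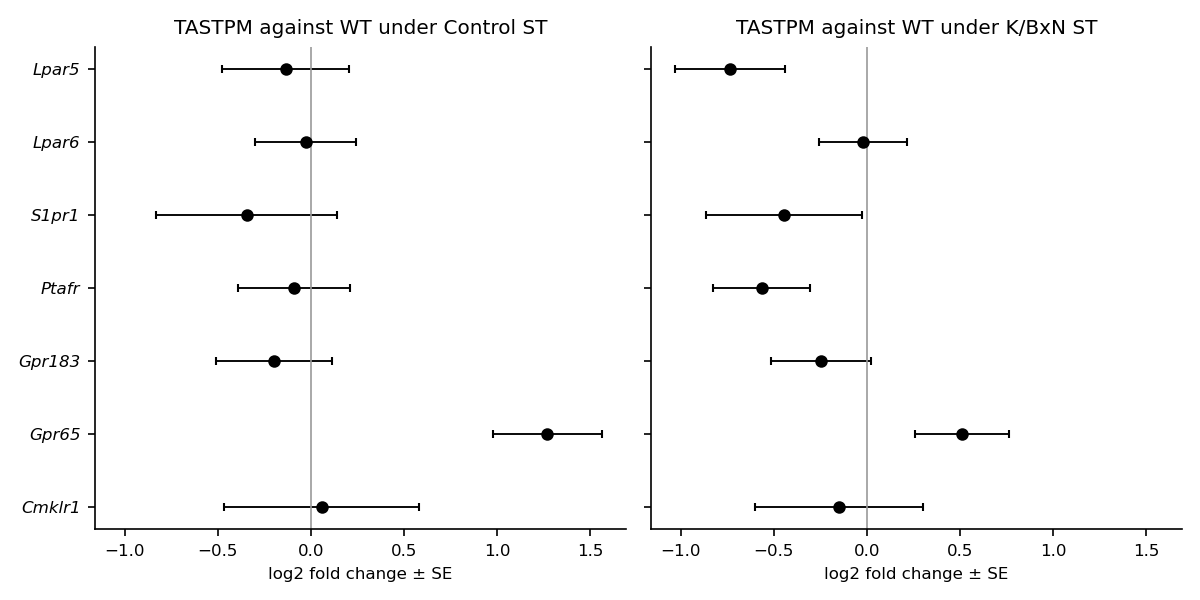
Difference between TASTPM and WT on the log2 scale with the SE, under Control ST (left) and K/BxN ST (right), for the 7 receptors with at least 10 reads in every library. Gpr65 lies to the right in both, at 1.27 and 0.51, and Lpar5 and Ptafr lie at -0.73 and -0.56 under K/BxN ST.

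Whether serum acted differently in the genotypes was tested as an interaction. limma called 0 of 9 receptors and no gene (0%), and none of the 9 had an unadjusted p below 0.05, beside 3.04% of all genes. edgeR and DESeq2 also called none of the 9, each with 0 of 9 below 0.05. Over all genes 329 of 12647 (edgeR) and 402 of 12627 (DESeq2) were below it. The interaction of Gpr65 was -0.76 ± 0.39 (SE, log2; limma, adjusted p = 0.9988), that of Lpar5 -0.60 ± 0.45 and that of Ptafr -0.47 ± 0.40. For Lpar6 it was 0.01 ± 0.36. The serum comparisons in WT and TASTPM share no libraries.

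The relatives of these receptors were examined as 8 lists of receptors for protons, lysophosphatidic acid, sphingosine 1-phosphate, leukotrienes and PAF, prostanoids, lysophosphatidylserine, fatty acids and sterols, and chemerin, formyl peptides and anaphylatoxins. Of their 59 genes, the 9 receptors above included, 31 were analysed here and 22 passed the filter. limma called 0 of the 22 in any of the 4 comparisons of groups, and at an unadjusted p below 0.05 there were 2 in WT serum (Lpar6 and the nicotinic acid receptor Hcar2), 1 in TASTPM serum (Lpar6), 2 between genotypes under Control ST (Gpr65 and the medium-chain fatty acid receptor Gpr84) and 2 under K/BxN ST (Lpar5 and Ptafr). Over all genes 7.14%, 4.22%, 5.57% and 1.91% passed in these comparisons, so that the serum counts were near the background. Hcar2 was named after its values were seen. The median serum difference of the 22 was -0.34 in WT and -0.34 in TASTPM, beside 0.06 and 0.01 over all 12645 genes. The most abundant relatives were Gpr34, the lysophosphatidylserine receptor of microglia, with a mean of 62579 normalized counts, and the complement receptors C3ar1 and C5ar1 with 12037 and 10085. Gpr34 had 16072 to 44760 normalized counts in the 4 libraries high in blood markers and 47796 to 98559 in the other 10. C3ar1 had 3887 to 12121 and 11195 to 15286, and its serum differences were -0.29 in WT and -0.62 in TASTPM, both uncalled. Cysltr1, a receptor for cysteinyl leukotrienes, had a mean of 3517, Gpr84 of 2270.03, Cnr2, a cannabinoid receptor, of 1543, S1pr2 of 558, Ptger4, a prostaglandin E2 receptor, of 223 and the proton sensor Gpr4 of 42.4. Between genotypes the medians of the 22 were -0.13 under Control ST and -0.08 under K/BxN ST, beside 0.04 and -0.00 over all genes.

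Of the 22 receptors that passed the filter 2 (9.09%), Gpr35 and Gpr18, were higher in all 4 libraries high in blood markers than in any other library, near the 7.63% of all 12645 genes that passed it. Gpr35 had 1962 to 5543 normalized counts in the 4 libraries against 508 to 1254, and Gpr18, named after its values were seen, 128 to 562 against at most 95.6. Lower in all 4 were 3 of the 22 (13.6%), Lpar6, Cmklr1 and Gpr34, beside 2.51% of all genes. Of the 9 receptors that failed the filter 6 were higher in all 4 libraries, as were 15.6% of the 1684 genes that failed it. They included, besides Ltb4r1 and Gpr132, Ptgir, the prostacyclin receptor, with 82.8 to 444 normalized counts against at most 0.937. S1pr5 was another, with 78.9 to 283 against at most 2.26.

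Genes tied to the ligands, most of them enzymes that make or degrade these, were given as 6 lists of 31 genes. Of the 31, 22 were analysed and 21 passed the filter, and the 4 genes of the chemerin list were not analysed here. limma called 0 of the 21 in any comparison, with 1 below an unadjusted p of 0.05 in WT serum (Pla2g7, a PAF acetylhydrolase) and 1 between genotypes under Control ST (Pla2g6, a phospholipase), both named after their values were seen, each count being a smaller share than the 7.14% and 5.57% of all genes. Pla2g7 had 1862 to 4389 normalized counts in the 4 libraries high in blood markers against 1.87 to 333 in the other 10, and the part of blood cells in its serum difference was not tested. Of the 21 genes 4 (19.0%) were higher in all 4 libraries, Pla2g7, Lta4h, Alox5ap and Cyp4f18, and 1, Lpcat2, was lower, beside 7.63% and 2.51% of all genes, and Cyp4f18 was named after its values were seen. The median serum difference was -0.16 in WT and -0.14 in TASTPM. On the leukotriene B4 side Alox5ap, which hands arachidonic acid to 5-lipoxygenase, had a mean of 3139 normalized counts and Lta4h, the leukotriene A4 hydrolase, of 1564. Lta4h had 1468 to 3987 normalized counts in the 4 libraries high in blood markers against 522 to 1273 in the other 10, the same 4 in which Ltb4r1 was above 3 reads. Lpcat2, which makes PAF in activated macrophages, was the most abundant ligand enzyme with a mean of 30517, followed by Sgpl1, the lyase that degrades sphingosine 1-phosphate, with 10720. Ch25h, which makes the precursor of the Gpr183 ligand, was low and variable, with 0 to 523 normalized counts. Lpcat1, the phosphatases Sgpp1 and Plpp1 and the phospholipase Liph had means of 3201, 2629, 1365 and 1606.

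For each receptor the genes with the most similar profile over the 14 libraries were listed by Pearson r of log2(normalized count + 1), as a description: the points share the 4 libraries that stood apart. Ltb4r1 was nearest to Chil3 (r = 0.99), which is on the monocyte marker list, and to Emb (r = 0.99), and over the other 10 libraries the r was 0.68 and -0.01. Gpr132 was nearest to Ciao2a (r = 0.94) and Slfn2 (r = 0.94), with 0.73 and 0.68 over the 10 libraries. Over those 10 libraries Ltb4r1 held at most 2 reads and Gpr132 at most 13, so their r there rests mostly on values near the floor. Gpr183 was nearest to the growth factor genes Pdgfb (r = 0.93) and Pdgfa (r = 0.92), with 0.83 and 0.69 over the 10. Gpr65 was nearest to Gps2 (r = 0.83) and Fbxl21 (r = 0.80), and over the 10 libraries these were 0.90 and 0.84. Fbxl21 was itself low, with 0 to 63.6 normalized counts over the 10. For Lpar5 the nearest were Atp9b and Fli1 (r = 0.91 and 0.90), for Lpar6 Ric3 and Inka1 (0.92 and 0.92), for Cmklr1 Lrrc3 and Adap2 (0.96 and 0.94), for Ptafr Tmem100 and Cd79b (0.90 and 0.90) and for S1pr1 Gaa and Flcn (0.88 and 0.88). Over the 10 libraries, in the same order, r was 0.79 and 0.64 for Lpar5, 0.65 and 0.73 for Lpar6, and 0.72 and 0.66 for Cmklr1. It was 0.76 and 0.57 for Ptafr and 0.85 and 0.84 for S1pr1.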

How the data were processed

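Sorted microglia were sequenced after SMART-Seq amplification. The authors aligned reads with HISAT2 2.1 to GRCm39 and counted them per gene with featureCounts 1.5.2. The values the authors deposited are normalized counts, a signal of reads divided by 1 factor per library, and 100% of them came out as whole reads (within 0.05 reads). The study's methods give replicates as individual mice, while the labels tie no library to an animal. A further part of the TASTPM genotype is not reported here. Of 14336 entries, 7 repeated identifiers were left out.

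log2(normalized count + 1) was fitted to the 4 groups with limma 3.58.1 (trend) in R 4.3.3, over Ltb4r1, Gpr132 and the 12645 genes that reached 10 reads in 7 or more libraries. edgeR 4.0.16 and DESeq2 1.42.0 were run on the recovered reads, and scipy 1.17.1 gave exact permutation tests. The test scripts were tested on simulated data. Exon lengths and positions are from GENCODE vM39 on GRCm39. The 4 libraries that stood apart were left out as an alternative, and the microglia marker scaling was added after seeing the data. Receptors, gene lists and tests were chosen with earlier results of these data known. Named genes are the 9 receptors, any list gene beyond these called by limma (none was), the 2 most abundant others of each list, the 2 nearest profiles of each receptor and 8 markers. Hcar2, Gpr18, Pla2g7, Pla2g6 and Cyp4f18 fall outside this rule. Intervals and the floor of 3 reads cover counting error only.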

Additional observations from a re-analysis of the deposited data

How the results depend on the processing

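Over 28 alternatives (27 for the interaction), edgeR, other scalings, pseudocounts of 0.5 and 8, no filter, robust variances, a blood marker covariate and the omission of each library or of the 4 libraries high in blood markers left 0 of 9 receptors called in every comparison. DESeq2 called 1 receptor in WT serum, 0 in TASTPM serum and 1 between genotypes under Control ST, and without a filter 2, 1 and 1. Over all genes limma called 1, 0 and 0 in these comparisons, DESeq2 129, 16 and 41, DESeq2 without a filter 275, 88 and 84, and edgeR 0 in each. For the interaction limma called 0 genes, DESeq2 12 and, without a filter, 36. Omitting 1 library, limma called 0 to 17 genes in WT serum, the most without WT Control ST 3 and 14 without WT Control ST 2. The cause was not tested.

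Over the alternatives the sign of a receptor turned in 16 of 252 values in WT serum, 7 of 252 in TASTPM serum, 17 of 252 and 16 of 252 between genotypes under Control ST and K/BxN ST, and 41 of 243 for the interaction, none of them called. Microglia marker scaling, which shifts the median of all genes by 0.53 in WT and 0.57 in TASTPM, turned Gpr183 (0.10), Lpar5 (0.48), Cmklr1 (0.31) and S1pr1 (0.0046) in WT and Gpr183 (0.087), Gpr65 (0.34), Cmklr1 (0.14) and Ptafr (0.16) in TASTPM. Lpar5 in WT also turned with library totals (0.0037), without the 4 libraries (0.042), with the blood marker covariate (0.19) and over single omissions (-0.29 to 0.10). Cmklr1 turned without the 4 libraries (0.38 in WT, 0.18 in TASTPM), with the covariate (0.29 and 0.23) and over single omissions (-0.52 to 0.11 in WT, -0.64 to 0.013 in TASTPM), and Ptafr in WT ranged from -0.057 to 0.18 over single omissions. Single omissions moved Ltb4r1 between 3.23 and 6.81 in WT and between 3.83 and 7.07 in TASTPM, and Gpr132 between 2.46 and 4.6 and between 3.21 and 4.61. In TASTPM they moved Lpar5 between -0.86 and -0.37, Ptafr between -0.64 and -0.18 and Gpr65 between -0.53 and -0.058. Under Control ST the genotype difference of S1pr1 lay between -0.67 and 0.20 over single omissions, positive without TASTPM Control ST 2 alone, and that of Cmklr1 between -0.073 and 0.29 (-0.050 with the covariate). The interaction of Lpar6 lay between -0.16 and 0.21, and was -0.016 with TMM scaling and -0.032 with library totals. Ltb4r1 and Gpr132 had fewer than 3 reads, the number taken as detectable, in most libraries. No paired analysis was possible because the groups share no replicate numbers.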

Other observations

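Of the G proteins and arrestins through which these receptors signal, 9 Gα genes and 6 arrestin and receptor kinase genes were listed. All of them were measured and passed the filter. limma called 0 of the 15 in the comparisons of serum or genotype, with 0 below an unadjusted p of 0.05, beside 1 gene called in WT serum (0.00791%), none elsewhere, and 7.14%, 4.22%, 5.57% and 1.91% of all genes below 0.05 in WT serum, TASTPM serum and the genotypes under Control ST and K/BxN ST. Their median serum difference was 0.03 on the log2 scale in WT and 0.00 in TASTPM, beside 0.06 and 0.01 over all genes. Gnai2, the inhibitory Gα of leukocytes, was the most abundant with a mean of 14693 normalized counts, and Gna15, a Gq-class Gα of haematopoietic cells, had 6222. The pair differed over the libraries: Gnai2 had 17339 to 23368 normalized counts in the 4 libraries high in blood markers and 11292 to 14708 in the other 10, whereas Gna15 had 2745 to 4876 and 6242 to 8420. Arrb2, an arrestin, had a mean of 2606 and Grk2, a receptor kinase, of 2237, and each overlapped between the 4 libraries and the other 10. Other arrestin and kinase genes did not overlap, and 2 of those 6 were higher in all 4 libraries. Of all 15 genes, 3 were higher in all 4 libraries and 2 were lower, beside 7.63% and 2.51% of all genes.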
